A study of Homo sapiens with 6 samples.

Results

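The S100 calcium-binding proteins were followed as 10 genes, S100A2, S100A3, S100A4, S100A6, S100A8, S100A9, S100A11, S100A14, S100A16 and S100P, chosen by gene symbol in the count table of 58735 genes. All 10 had a single row each. Of them, 7 passed the filter on low counts and were tested among 14520 genes, while S100A8, S100A9 and S100A14 had too few counts to test.

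S100 proteins are small EF-hand proteins that mostly work as dimers. Binding of calcium opens a hydrophobic face that docks onto partner proteins such as annexins, myosin and ezrin, and some family members are also secreted and act on receptors such as AGER and TLR4. Most of the genes lie in a cluster on chromosome 1 within the epidermal differentiation complex, and several, S100A4 above all, are known for their link to invasion and metastasis of breast cancer.

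The cells were MDA-MB-231, a long-established line of triple-negative human breast cancer, and 6 RNA libraries were sequenced. DNAJC12v had been transfected for 3 of them, labelled DNAJC12 overexpression, and empty vector for the other 3, labelled control. DNAJC12 is a J-domain co-chaperone. The labels name no promoter, clone or time after transfection and do not state separate cultures within a group, so p-values reflect the spread among these 6 samples alone, and that spread may be technical.

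Library totals ran from 17967283 to 18887497 counts. DNAJC12 itself had 522, 523 and 492 counts in the overexpression libraries, against 1, 0 and 0 counts with empty vector. The line's own markers VIM, CD44, AXL, CAV1, EGFR and ZEB1 were all read, ZEB1 at only 1.45 to 6.50 CPM. No count in any library was found for 4 of 12 myeloid markers (CSF3R, FCGR3B, MPO and TYROBP) and 3 of 10 keratinocyte markers (KRT1, KRT6A and DSG3). Others on those lists were read, among them CD14 (4.85 to 12.6 CPM), CSF1R (3.76 to 8.56 CPM), KRT10 (19.8 to 65.8 CPM) and SFN (114 to 279 CPM). Summed over the myeloid list, levels were 9.15 to 20.5 CPM with DNAJC12 and 14.3 to 17.4 CPM with empty vector, and over the keratinocyte list 178 to 347 CPM with DNAJC12 and 136 to 200.3 CPM with empty vector. Luminal mammary markers summed to 2359 to 4759 CPM with DNAJC12 and 2939 to 3379 CPM with empty vector. The keratins KRT8 (1396 to 2854 CPM), KRT18 (558 to 1147 CPM) and KRT19 (303 to 824 CPM) made up most of that sum. ESR1, PGR and FOXA1 on the same list had at most 2, 3 and 5 counts in any library. Fibroblast markers summed to 52.9 to 83.3 CPM with DNAJC12 and 32.2 to 38.5 CPM with empty vector. Most of that was PDGFRB, at 46.1 to 72.4 CPM with DNAJC12 and 25.4 to 27.2 CPM with empty vector. COL1A2 and LUM also averaged higher with DNAJC12 (2.06 and 0.568 against 1.08 and 0.200 CPM), and COL1A1 lower (5.75 against 8.47 CPM). COL3A1 and DCN had at most 2 counts in any library. The part of these markers in the results was not tested. Overexpression replicate 2 stood apart from replicates 1 and 3. In the lowest quintile of transcript GC content its log2 CPM lay a median of -1.06 away from their mean, and in the highest quintile 0.73. Empty vector replicate 2 had a smaller gap of the same direction from its replicates 1 and 3, at -0.39 and 0.27 in those quintiles. Members had a GC content of 51.3% to 60.0%, against a median of 50.3% over tested genes. All 7 tested members read 0.64 to 0.77 higher in overexpression replicate 2 than in the mean of overexpression replicates 1 and 3 on that scale. In the middle quintile (47.8% to 53.0% GC) the median gap of overexpression replicate 2 was only 0.05. S100P, S100A11 and S100A4 fall in that quintile, with gaps of 0.70, 0.65 and 0.66, and the reason was not tested. Each tested member's result is therefore given with and without overexpression replicate 2.

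No S100 gene passed the test between DNAJC12 and empty vector. None of the 7 tested members passed edgeR's quasi-likelihood test (Benjamini-Hochberg adjusted p under 0.05), which 1.25% of all tested genes passed (0.585% higher and 0.661% lower with DNAJC12). The DESeq2 Wald test and limma on log2(FPKM + 1) also called no member, where 3.22% and 1.24% of all genes passed. At an unadjusted p under 0.05 the edgeR test held 1 of the 7, S100P, which was lower, against 14.1% of all tested genes (7.25% higher and 6.86% lower). The members did not move as a block: log2 fold changes ran from 0.49 for S100A11 down to -0.76 for S100P, with 5 above 0 and a median of 0.18, beside 0.05 over all tested genes. Exact permutation over 3 and 3 libraries reaches 0.1 at the lowest and was not used for single genes.

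**Figure D1:**
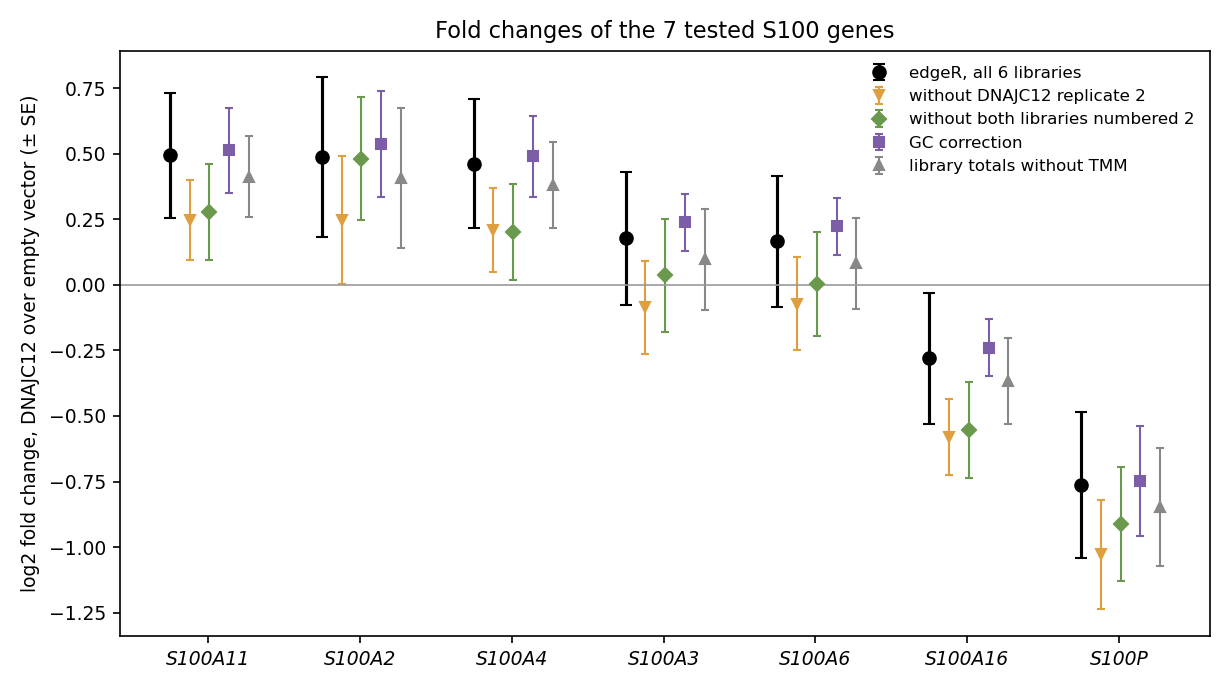
Log2 fold change (DNAJC12 over empty vector, ± SE) of the 7 tested S100 genes in the edgeR fit of all 6 libraries and in 4 alternatives. S100A16 and S100P lie below 0 in each of the 5 fits, and S100A3 and S100A6 lie just below 0 in the fit without DNAJC12 replicate 2.

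Per length of gene, the family was dominated by S100A6. It held 62.3, 63.1 and 65.0% of the summed member FPKM in the 3 DNAJC12 libraries and 60.9, 66.9 and 68.7% with empty vector. In mean FPKM the order with DNAJC12 was S100A6 (2878), S100A11 (861), S100A4 (442), S100A16 (256), S100A3 (46.9), S100P (24.2), S100A2 (22.6) and S100A14 (0.242). With empty vector S100A6 (2578), S100A11 (614), S100A4 (322) and S100A16 (312) again came first, followed by S100A3 (41.6), S100P (41.3), S100A2 (16.2) and S100A14 (0.325). Some neighbours in these orders were closer than the spread between libraries. With empty vector S100A4 and S100A16 differed by less than the SD of S100A4 (38.4 FPKM), as did S100A3 and S100P against the SD of S100P (8.10 FPKM). With DNAJC12 the same held for S100P and S100A2 (SD 7.93 and 6.65 FPKM). By percentile rank of FPKM among tested genes, S100A6 stood between 99.88 and 99.92 over the 6 libraries and S100A2, the lowest tested member, between 74.4 and 86.6.

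**Figure D2:**
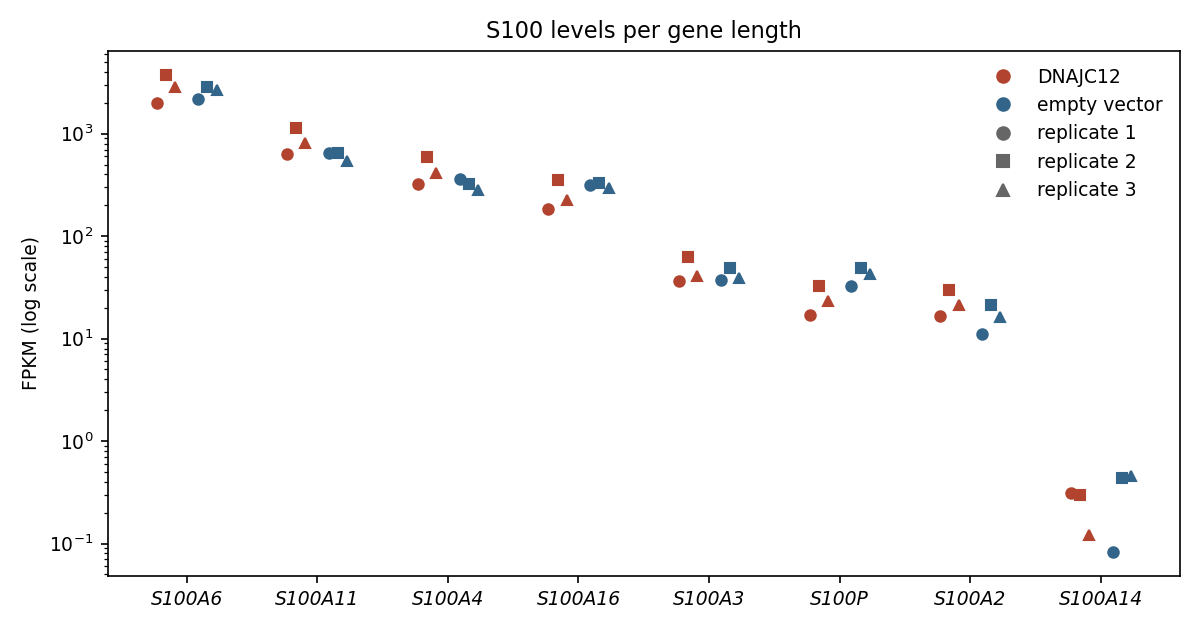
FPKM of 8 S100 genes in each of the 6 libraries on a log axis, in order of their mean with DNAJC12, with replicate numbers as symbols. S100A6 lies between 2015 and 3776 FPKM, S100A14 between 0.0830 and 0.457 FPKM, and S100A8 and S100A9, with 2 and 0 counts in all, are not drawn.

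Among the abundant members, S100A6, known as calcyclin, which binds the ubiquitin ligase adaptor CACYBP, had 1983, 3672 and 2803 CPM in DNAJC12 replicates 1 to 3, against 2150, 2798 and 2594 CPM with empty vector. The highest and the lowest value both belonged to DNAJC12 libraries, so the groups overlapped. Its log2 fold change was 0.17 ± 0.25 SE, and -0.07 without DNAJC12 replicate 2.

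S100A11, a partner of annexin A1 that is known from membrane repair, read 441, 776 and 555 CPM with DNAJC12 and 448, 443 and 368 CPM with empty vector. Replicate 1 of the DNAJC12 group lay among the empty vector libraries and the other two lay above them. The log2 fold change was 0.49 ± 0.24 SE (edgeR, adjusted p = 0.401), and 0.25 without DNAJC12 replicate 2.

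S100A4, the metastasis-associated member that binds nonmuscle myosin, had 335, 603 and 433 CPM with DNAJC12, against 373, 332 and 291 CPM with empty vector. Empty vector replicate 1 lay above DNAJC12 replicate 1, so the groups overlapped. Its log2 fold change was 0.46 ± 0.25 SE, and 0.21 without DNAJC12 replicate 2. S100A4 and S100A11 followed each other across the 6 libraries (Pearson r of log2 CPM 0.990). That r is a description of 6 points in 2 groups that share their library scaling. In the same measure S100A16 and S100P had an r of 0.850 with each other, and S100P had -0.173 and -0.184 with S100A4 and S100A11.

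S100A3, best known from the hair cuticle, had 35.7, 60.3 and 39.5 CPM with DNAJC12 and 35.7, 46.9 and 37.1 CPM with empty vector. Apart from the higher replicate 2 in each group, the libraries lay close together. Its row spans 2044 bases that lie wholly inside the S100A4 row on the same strand, so reads in shared exons may have been split or dropped between them, and both values are uncertain. S100A3 had a log2 fold change of 0.18 ± 0.25 SE, which was -0.09 without DNAJC12 replicate 2.

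S100A2, a mostly nuclear member that is known to bind p53, read 26.4, 46.7 and 34.1 CPM with DNAJC12, against 17.5, 33.4 and 25.5 CPM with empty vector. Empty vector replicate 2 lay above DNAJC12 replicate 1, so the groups overlapped. Its log2 fold change was 0.49 ± 0.30 SE, and 0.25 without DNAJC12 replicate 2.

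S100A16 and S100P had the only fold changes below 0 among the tested members. S100P, which binds ezrin and was first found in placenta, had 437, 662 and 579 counts in DNAJC12 replicates 1 to 3, against 785, 1117 and 1036 counts with empty vector. That came to 21.9, 41.8 and 30.2 CPM with DNAJC12 and 42.1, 62.1 and 55.1 CPM with empty vector. On the CPM scale the groups did not overlap, although DNAJC12 replicate 2 and empty vector replicate 1 nearly met. S100P was the 1 tested member without overlap, which was seen in 20.1% of all tested genes (9.26% higher and 10.8% lower with DNAJC12). In the authors' FPKM the same 2 libraries crossed, at 32.6 FPKM in DNAJC12 replicate 2 and 32.5 FPKM in empty vector replicate 1. S100P averaged 31.3 ± 10.02 CPM with DNAJC12 and 53.1 ± 10.2 CPM with empty vector (SD, n = 3 each). The log2 fold change was -0.76 ± 0.28 SE (edgeR, adjusted p = 0.253), and it lay between -1.03 and -0.57 in 18 other settings.

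S100A16, a widely expressed member of the cluster, had 321, 605 and 393 CPM with DNAJC12, against 538, 561 and 502 CPM with empty vector. DNAJC12 replicates 1 and 3 lay below every empty vector library, and replicate 2 lay above them all. Its mean was 440 ± 148 CPM with DNAJC12 and 534 ± 29.9 CPM with empty vector (SD, n = 3 each), a log2 fold change of -0.28 ± 0.25 SE (edgeR, adjusted p = 0.669). Without DNAJC12 replicate 2, S100A16 and S100P were both lower at log2 fold changes of -0.58 ± 0.15 SE (adjusted p = 0.0150) and -1.03 ± 0.21 SE (adjusted p = 0.00558) in that edgeR fit. In that fit 22.5% of all genes passed (10.4% lower), beside those 2 of 8 tested members.

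Other settings placed the members against equally shifting backgrounds. S100A16 and S100P were also called lower without both libraries numbered 2, where 18.7% of all genes passed (8.41% lower). S100P alone was called with a GC correction, where 17.4% passed (8.53% lower), and with a replicate block, where 13.3% passed (6.38% lower). With both, S100A2, S100A4 and S100A11 were called higher and S100P lower, where 21.3% of all genes passed (10.9% higher and 10.4% lower). No member was called without DNAJC12 replicate 1 or 3, where 1.68% and 0.168% passed, or without empty vector replicate 1, 2 or 3, where 0.168%, 0.275% and 0.181% passed. The same was so with DESeq2 size factors (1.21%), no filter (2.52%), a filter of 1 CPM (1.3%), library totals without TMM (1.55%) and limma with a pseudocount of 0.1 (1.24%) or no filter (0.0439%).

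**Figure D3:**
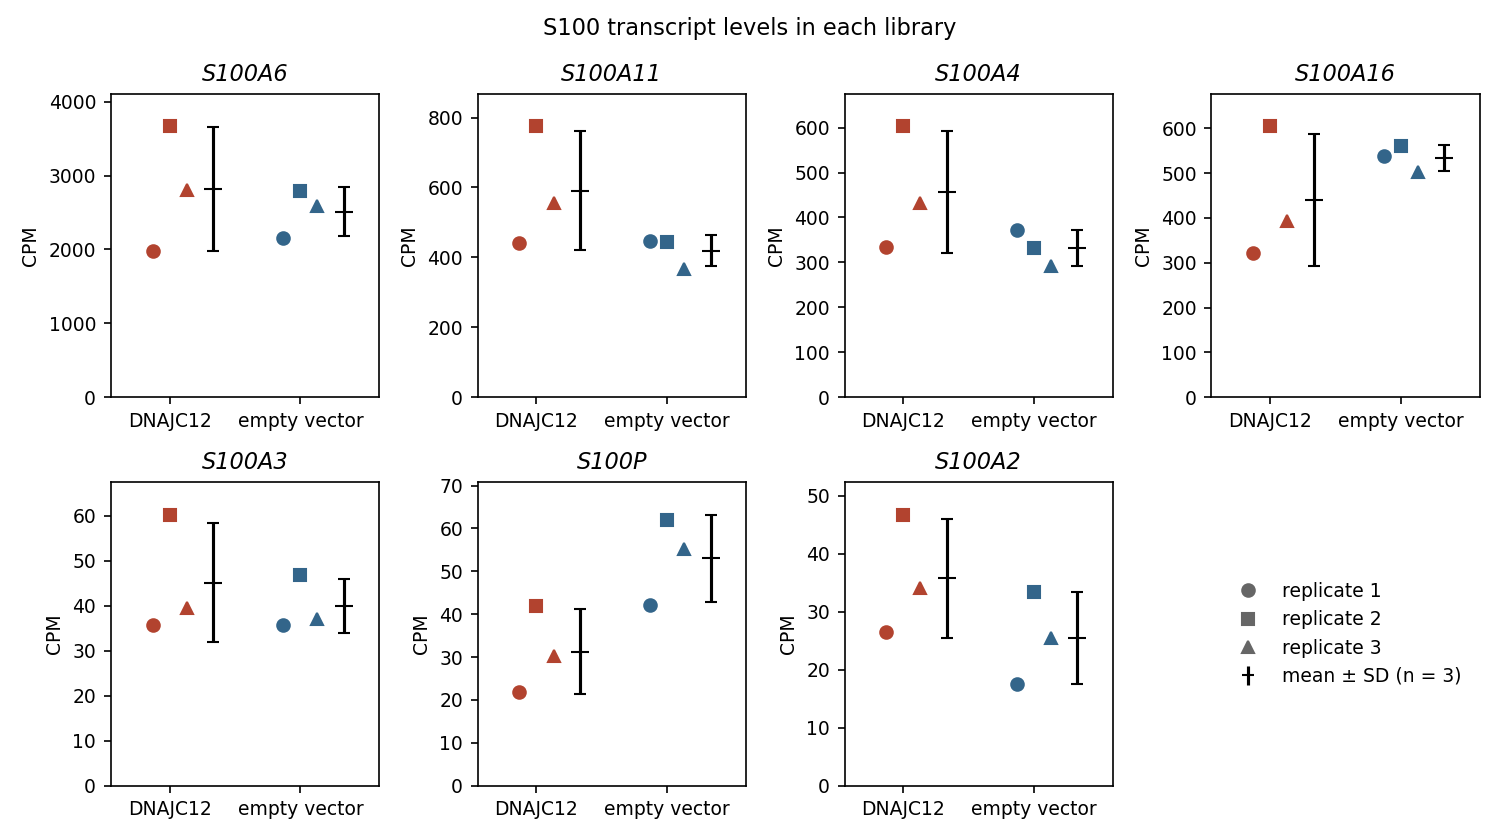
CPM of each tested S100 gene in each library, on linear axes from 0, with the mean and SD of each group (n = 3) beside the points. S100P is the member whose DNAJC12 libraries, at 21.9 to 41.8 CPM, all lie below its empty vector libraries, at 42.1 to 62.1 CPM. DNAJC12 replicate 2 is the highest DNAJC12 library for all 7 genes.

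The 250 bases before the RefSeq start site (GRCh38.p14) are shown for the genes with fold changes below 0. They are also shown for S100A4 and S100A11, which are among the members with fold changes above 0. S100P lies on the plus strand at chr4:6693628-6693877, and the others are minus strand genes read 5′ to 3′, S100A16 at chr1:153613138-153613387 (the first of 2 listed starts), S100A4 at chr1:153545807-153546056 and S100A11 at chr1:152037005-152037254. Capitals mark matches to a TATA box (TATAAA), the AP-1 site (TGANTCA) or the CARE site of ATF4 (TGATGNAA), on either strand.
S100P: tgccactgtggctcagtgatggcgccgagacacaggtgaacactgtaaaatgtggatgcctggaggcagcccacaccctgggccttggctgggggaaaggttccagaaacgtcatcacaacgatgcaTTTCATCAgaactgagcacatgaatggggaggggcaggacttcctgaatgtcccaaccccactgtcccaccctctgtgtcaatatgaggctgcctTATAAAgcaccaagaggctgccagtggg
S100A16: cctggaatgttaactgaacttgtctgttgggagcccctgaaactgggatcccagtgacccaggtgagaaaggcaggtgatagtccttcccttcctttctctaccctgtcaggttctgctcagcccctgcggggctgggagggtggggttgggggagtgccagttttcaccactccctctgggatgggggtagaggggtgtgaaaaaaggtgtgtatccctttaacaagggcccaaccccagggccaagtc
S100A4: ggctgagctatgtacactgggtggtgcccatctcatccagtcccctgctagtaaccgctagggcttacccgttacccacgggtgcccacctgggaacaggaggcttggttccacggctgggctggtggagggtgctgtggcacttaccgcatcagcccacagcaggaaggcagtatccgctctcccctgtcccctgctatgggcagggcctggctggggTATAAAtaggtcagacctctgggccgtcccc
S100A11: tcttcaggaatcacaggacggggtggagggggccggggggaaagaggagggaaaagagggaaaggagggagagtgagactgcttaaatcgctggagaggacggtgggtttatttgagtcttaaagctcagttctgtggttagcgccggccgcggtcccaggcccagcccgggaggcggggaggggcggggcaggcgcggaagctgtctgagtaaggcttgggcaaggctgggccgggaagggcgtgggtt

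Matched by symbol, all 10 members had a RefSeq promoter, 14 in total. The S100P stretch held a CARE match on the minus strand, starting at position -123, and a TATA match at -28, counted back from -1 at the base before the start. S100P was the 1 member with a CARE match, which 3.14% of 35116 promoters of this length held. TATA matches stood in 5 of the 14 member promoters, belonging to S100A4, S100A8, S100A9 and S100P, against 10.7% of all promoters. A pair of overlapping S100A8 stretches shared 1 TATA site, at -29 and -126 from their own starts, so that site is counted in both. AP-1 matches stood in 2, of S100A2 and S100A3, against 6.57%. A loose kappaB pattern, searched on both strands as well and not marked, was found in 9 of the 14 and in 54.4% of all promoters. No match of a motif overlapped one of another motif. S100A16 and S100A11 held none of the 3 marked motifs, which says only that these letters are not in the window.

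Ratios between members within a library do not depend on how libraries are scaled. The set of S100A16 and S100P against the other 5 tested members was chosen after their values were seen, so it has no test. In all 10 such pairs the ratio was lower in every DNAJC12 library than in every empty vector library. Of all 21 member pairs 13 did not overlap between groups, against 24.6% of the pairs of all tested genes, and pairs share members, so they are not independent. Among the 10 pairs without S100A16 and S100P, 2 did not overlap.

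There were 1.38, 1.28 and 1.41 counts of S100A11 for each count of S100A16 with DNAJC12, against 0.832, 0.789 and 0.733 with empty vector. The 3 libraries of a group lay close together here, DNAJC12 replicate 2 included. S100A6 had 90.7, 87.8 and 92.8 counts for each count of S100P with DNAJC12, and 51.1, 45.1 and 47.0 with empty vector. That is a log2 ratio of S100P to S100A6 of -6.49 ± 0.04 with DNAJC12 and -5.57 ± 0.09 with empty vector (SD, n = 3 each). All other pairs of S100A16 or S100P with these 5 members spread more among the empty vector libraries. The widest was S100A16 to S100A2, at 3.60 ± 0.08 with DNAJC12 and 4.43 ± 0.45 with empty vector. Over the 5 denominators, the difference in mean log2 ratio (DNAJC12 minus empty vector) ran from -0.83 to -0.46 for S100A16 and from -1.29 to -0.92 for S100P. Transcript GC content was 58.0% for S100A16, 51.3% for S100P and 51.8% to 60.0% for the other 5, and its part in these ratios was not tested.

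**Figure D4:**
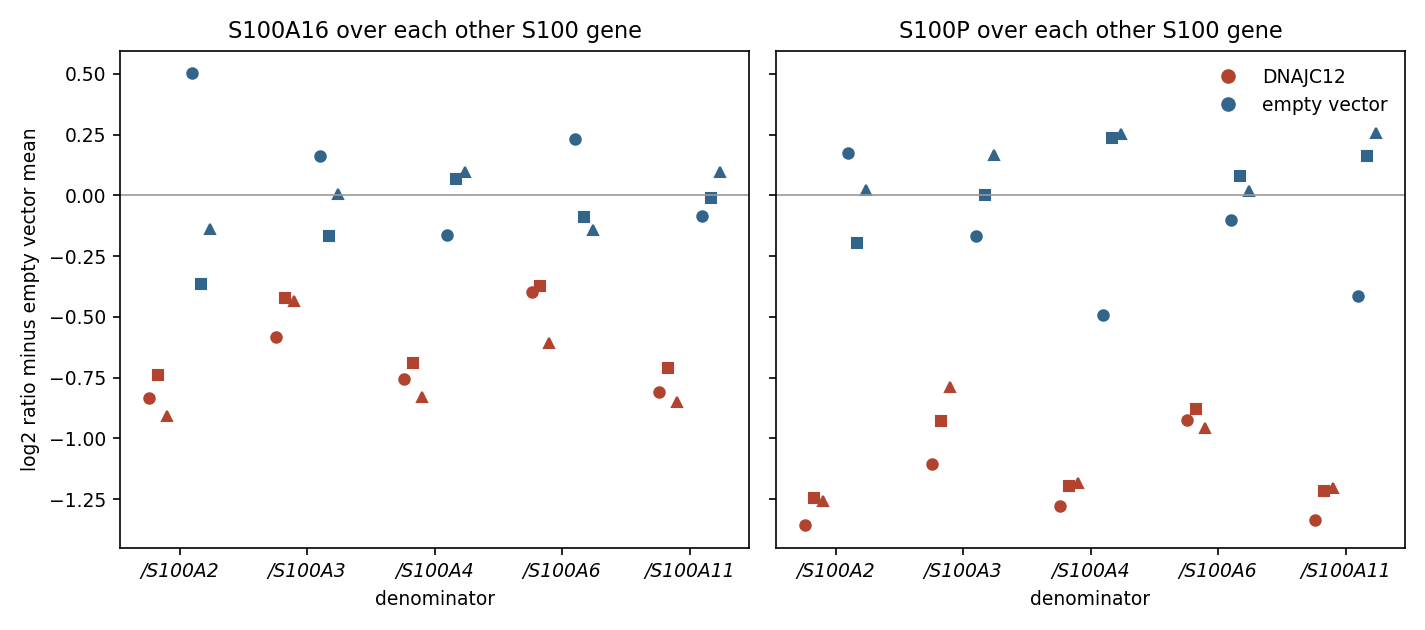
Log2 ratio of S100A16 (left) and S100P (right) to each other tested member in each library, minus the empty vector mean of that ratio. In all 10 pairs the 3 DNAJC12 libraries lie below the 3 empty vector libraries, and DNAJC12 replicate 2 lies with the other DNAJC12 libraries.

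S100A8 and S100A9, which form the calprotectin heterodimer of neutrophils and inflamed epithelium, were practically unread. S100A9 had 0 counts in all 6 libraries. S100A8 had 2 counts in empty vector replicate 3 and 0 counts elsewhere. A count of 0 allows up to 3 counts, which is 0.150 to 0.189 CPM with DNAJC12 and 0.160 to 0.167 CPM with empty vector, and this limit covers counting error only. At this depth no difference was detectable, and no fold is given. S100A14, an epithelial member, had 8, 6 and 3 counts with DNAJC12 and 2, 10 and 11 counts with empty vector. Those values overlapped, and the gene fell short of the minimum count for the test of all 6 libraries. Without DNAJC12 replicate 2 S100A14 passed the filter, with a log2 fold change of -0.56, and was not called.

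The genes on chromosome 1 differed by position. From S100A9 to S100A7 lie 6 S100 genes in a row (S100A9, S100A12, S100A8, S100A7A, S100A7L2 and S100A7), and the 2 counts of S100A8 were all that was read from them. Next come S100A6, S100A5, S100A4, S100A3 and S100A2 within 33.3 kb, with log2 fold changes of 0.17, 0.68, 0.46, 0.18 and 0.49. Farther on, 72.3 kb or more past the lower end of S100A6, S100A16 and S100A13 had -0.28 and -0.27, and S100A14 and S100A1 between and beyond them were hardly read. S100A10 and S100A11, with lower ends at -1552 and -1502 kb on the other side, had 0.44 and 0.49. Without DNAJC12 replicate 2, S100A6 and S100A3 were at -0.07 and -0.09, while S100A5, S100A4 and S100A2 were at 0.47, 0.21 and 0.25. None of these 9 tested genes passed the test of all 6 libraries, so the pattern along the cluster is a description.

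**Figure D5:**
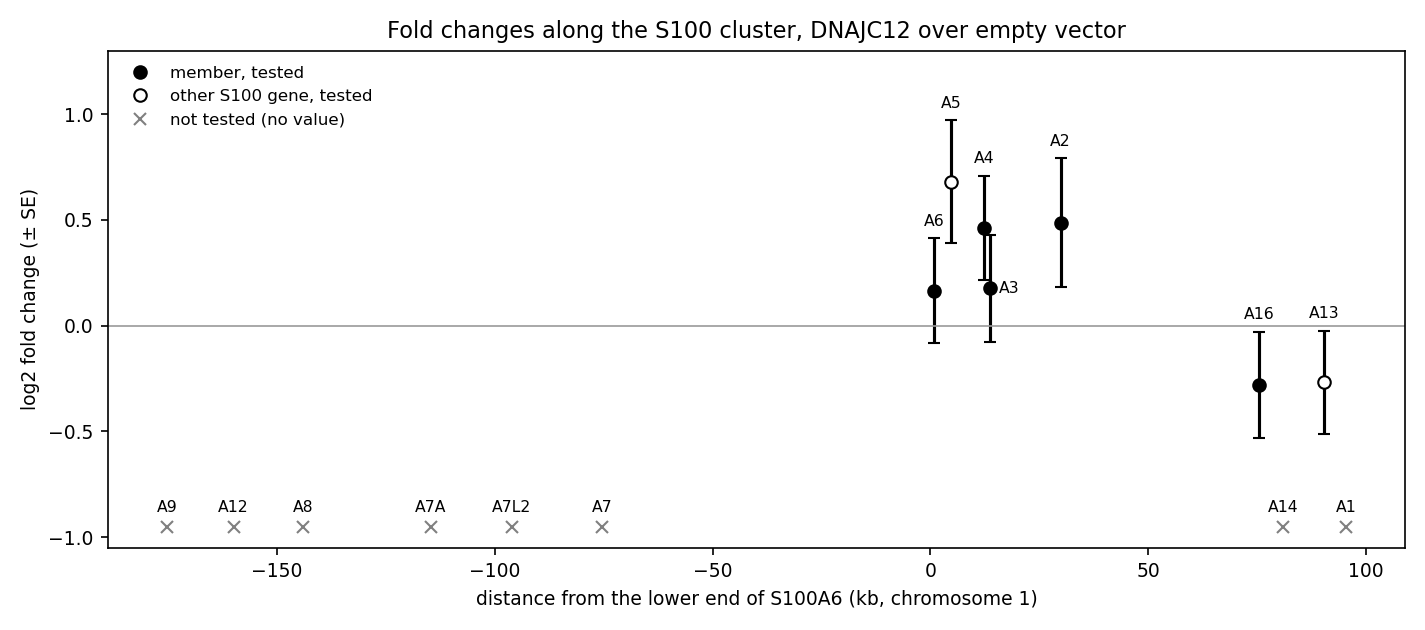
Log2 fold change (DNAJC12 over empty vector, ± SE) of S100 genes against the distance of the gene's middle from the lower end of S100A6, in kb on chromosome 1. Crosses at the bottom mark genes with too few counts to test and carry no value, and S100A10 and S100A11 lie outside the range drawn. In this fit of all 6 libraries S100A6 to S100A2 have values above 0 and S100A16 and S100A13 below it, and without DNAJC12 replicate 2 S100A6 (-0.07) and S100A3 (-0.09) also lie below 0.

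Among the other 11 S100 genes, 6 had no count in any library and 3 were tested, of which none passed in edgeR. At an unadjusted p under 0.05 edgeR held 1 higher, beside 7.25% of all tested genes. DESeq2 and limma on FPKM called none. S100A10, the constant partner of annexin A2, had 531, 842 and 721 CPM with DNAJC12 and 521, 537 and 486 CPM with empty vector. DNAJC12 replicate 1 lay below empty vector replicate 2, so the groups overlapped, and the log2 fold change was 0.44 ± 0.22 SE. With the GC correction and the replicate block S100A10 was called higher at 0.42 (adjusted p = 0.0444, edgeR). In that fit 21.3% of all genes passed (10.9% higher). S100A13, which takes part in the export of FGF1 and IL1A, read 27.2, 43.4 and 27.8 CPM with DNAJC12, against 40.5, 36.9 and 40.9 CPM with empty vector. Its pattern was that of its neighbour S100A16, with DNAJC12 replicates 1 and 3 below every empty vector library and replicate 2 above them, and a log2 fold change of -0.27 ± 0.24 SE. Without DNAJC12 replicate 2 it was -0.52 ± 0.17 SE (adjusted p = 0.0412, edgeR), where 22.5% of all genes passed (10.4% lower). S100A5, named after its values were seen, had 5.15, 6.95 and 4.23 CPM with DNAJC12 and 3.38, 3.11 and 3.67 CPM with empty vector. Those groups did not overlap, as in 20.1% of all tested genes, and its log2 fold change was 0.68 ± 0.29 SE (adjusted p = 0.334, edgeR). With the GC correction it was 0.72 (adjusted p = 0.0401, edgeR), where 17.4% of all genes passed (1283 genes higher). With the GC correction and the replicate block it was also 0.72 (adjusted p = 0.0452, edgeR), where 21.3% passed (10.9% higher). S100A13 overlaps S100A1 on the opposite strand, and the strand setting of the counting is not given, so both are uncertain.

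Receptors and binding partners of S100 proteins showed no call in the test of all 6 libraries. Of 17 listed genes 16 were tested and none passed over all genes (edgeR; none at an unadjusted p under 0.05, none by DESeq2 or limma on FPKM), with a median log2 fold change of 0.16 and 9 of 16 above 0. Without DNAJC12 replicate 2 edgeR called 4 of the 16 higher, where 22.5% of all genes passed and 1806 of 14974 were called higher. With the GC correction it called 1 higher, where 17.4% of all genes passed and 1283 of 14520 were called higher. Annexin A2 (ANXA2), the partner of S100A10 and S100A11, had 2353 ± 137 CPM with DNAJC12 and 2394 ± 240 CPM with empty vector (SD, n = 3 each). Its log2 fold change was -0.02 ± 0.18 SE. Basigin (BSG), a receptor for secreted S100A9, had 1098 ± 403 CPM with DNAJC12 and 1114 ± 148 CPM with empty vector (SD, n = 3 each), a log2 fold change of -0.02 ± 0.27 SE.

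The genes whose pattern over the 6 libraries was most like that of S100P, the member with the smallest p, were SLC26A6 (Pearson r of log2 CPM 0.998), ATG16L2 (0.997) and RECQL4 (0.997), among 9673 protein-coding genes averaging 5 CPM or more. SLC26A6 is an anion exchanger, ATG16L2 a relative of an autophagy factor and RECQL4 a DNA helicase. Their log2 fold changes were -0.54, -0.43 and -0.71, and none passed the edgeR test. These r were picked as the highest of all candidates, over 6 points that share their library scaling, so they are a description only. Like S100P (0.70), these genes read higher in DNAJC12 replicate 2 than in the mean of DNAJC12 replicates 1 and 3. Their gaps in log2 CPM were 0.51, 0.37 and 0.74.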

How the data were processed

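RNA sequencing of 6 MDA-MB-231 libraries, 3 with DNAJC12 and 3 with empty vector, was taken up from 2 tables: whole-number read counts per gene and FPKM per gene, both deposited by the authors. HISAT2 2.0.5 and hg19 are named per the submitters' processing notes. Gene coordinates in the tables equal those of GENCODE 29 on GRCh38 for all 58735 genes, so GRCh38 is used. How reads were counted, and whether by strand, is not given in the sources used here. Each FPKM equals the count over gene length and 1 depth per library, 0.854 to 1.10 times the library total.

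Counts were tested with edgeR 4.0.16 (quasi-likelihood test, robust) in R 4.3.3, with TMM scaling, filterByExpr (minimum count 10, minimum total 15) and Benjamini-Hochberg adjustment over 14520 genes at 0.05. CPM are TMM-scaled, and log2 CPM has a prior count of 2. An SE is the log2 fold change divided by the root of the F statistic. The members and gene lists were chosen with earlier results of these data known.

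Alternatives were the DESeq2 1.42.0 Wald test, DESeq2 size factors, no filter, 1 CPM in 3 libraries, a replicate block, each library or both libraries numbered 2 left out, a GC correction (loess, span 0.3, with and without the block) and limma 3.58.1 on log2 FPKM with pseudocounts of 1 and 0.1 (filter 0.5 FPKM in 3 libraries, or none). Library totals without TMM were added after the data were seen. The scripts were tested on simulated data. All members were named. From each list besides the markers, the called genes were named and, where fewer than 2 were called, the 2 most abundant by mean FPKM, and for the member with the smallest p the 3 genes with the most similar pattern.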

Additional observations from a re-analysis of the deposited data

How the results depend on the processing

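Without DNAJC12 replicate 2, the log2 fold changes of S100A3 and S100A6 went below 0 (lowest to highest with 1 library left out, -0.086 to 0.31 and -0.072 to 0.36), and all other tested members kept their direction in the 18 alternatives. S100P was called in 5 of them, at log2 fold changes from -1.03 to -0.75. The number of members called lower was 1 with the GC correction and 2 without both libraries numbered 2. Leaving out 1 library at a time gave 0 to 2 members called lower and 0 higher. The same fits put 15 to 1806 genes higher and 6 to 1560 lower in all: 1806 and 1560 without DNAJC12 replicate 2, 141 higher without replicate 1, 19 and 6 without replicate 3, and 15 and 10, 21 and 20, and 16 and 11 without empty vector replicates 1, 2 and 3. Genes higher and lower numbered 85 and 96 in the edgeR test of all libraries, 268 and 259 by DESeq2, 366 and 322 with no filter, 1514 and 1240 without both libraries numbered 2, 1283 and 1238 with the GC correction, and 8 and 4 by limma on log2(FPKM + 1) with no filter. The cause was not tested.

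Samples with the same number had correlated deviations from their group means for numbers 1 and 2 (Pearson r 0.448 and 0.585) and hardly for 3 (0.0335), which fell short of the rule that every pair exceed 0.1, so they were not treated as pairs. Whether they share a batch was not tested. With the replicate block, 1011 genes were higher and 926 lower, and 1 member, S100P, was called lower (-0.79). With the GC correction and the replicate block these were 1579 and 1516 genes, with 3 members called higher (S100A2, S100A4 and S100A11) and 1 lower.

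With 1 library left out, BSG ran from -0.35 to 0.17 and ANXA2 from -0.093 to 0.053, and both changed direction. A pseudocount understates changes of genes with low FPKM.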

Other observations

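Other EF-hand genes, calcium sensors of other families, gave no call in the test of all 6 libraries. Of 20 listed genes 18 were tested and none passed in edgeR, with a median log2 fold change of -0.03. At an unadjusted p under 0.05 edgeR held 2 higher, beside 7.25% of all tested genes. DESeq2 and limma on FPKM called none. Without DNAJC12 replicate 2 edgeR called 2 higher and 3 lower, where 22.5% of all genes passed. With the GC correction it called 3 higher and 2 lower, where 17.4% passed. CAPNS1, the small calpain subunit, had 907 ± 316 CPM with DNAJC12 and 695 ± 56.1 CPM with empty vector (SD, n = 3 each). Its log2 fold change was 0.38, with 0.07 without DNAJC12 replicate 2 and 0.42 with the GC correction (edgeR, adjusted p = 0.0373). CALM3, a calmodulin gene, had 708 ± 199 CPM with DNAJC12 and 831 ± 60.2 CPM with empty vector, a log2 fold change of -0.23, and of -0.48 without DNAJC12 replicate 2 (edgeR, adjusted p = 0.0291).

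The other genes of the epidermal differentiation complex were almost silent. Of 21 listed, 15 had no count in any library and 2 were tested, of which none passed in edgeR. At an unadjusted p under 0.05 edgeR held 1 higher, beside 7.25% of all tested genes. DESeq2 called none, and limma on FPKM tested none. FLG, filaggrin, had 6.55 ± 0.354 CPM with DNAJC12 and 5.16 ± 1.24 CPM with empty vector, and HRNR, hornerin, 1.66 ± 0.313 CPM with DNAJC12 and 0.934 ± 0.257 CPM with empty vector (SD, n = 3 each).

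Of 7 cytokines listed as inducers of S100A8 and S100A9, 4 were tested (IL6, IL1B, IL1A and TNF). IL17A and IL22 had no count in any library, OSM had at most 6 counts in a library and TNF 6 to 19. IL6 had 209 ± 29.7 CPM with DNAJC12 and 196 ± 19.7 CPM with empty vector. Among the 4, edgeR called 1 lower over all 6 libraries, IL1B, where 0.661% of all tested genes were called lower. DESeq2, the fit without DNAJC12 replicate 2 and the GC correction each called 2 lower, IL1B and IL1A. DESeq2 passed 3.22% of all genes (259 genes lower), the fit without DNAJC12 replicate 2 22.5% (10.4% lower) and the GC correction 17.4% (8.53% lower). IL1B had 25.6 ± 1.45 CPM with DNAJC12 and 217 ± 20.4 CPM with empty vector (SD, n = 3 each). IL1A had 7.69 ± 2.80 CPM with DNAJC12 and 19.4 ± 3.34 CPM with empty vector (edgeR, adjusted p = 0.0839). Its log2 fold change was -1.33, and it passed with DESeq2 (adjusted p = 0.00219), without DNAJC12 replicate 2 (0.00904) and with the GC correction (0.000243), but not without DNAJC12 replicate 3 (0.410).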
